A study of Mus musculus with 6 samples.

Results

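WAP-domain protease inhibitors are small secreted proteins built around the whey acidic protein (WAP) domain, a compact fold held by disulfide bonds. The 8 genes described here are Wfdc1, Wfdc2, Wfdc3, Wfdc15b, Wfdc17, Wfdc18, Wfdc21 and Slpi, of 21526 gene symbols measured. They were selected by symbol, with results of the comparison of Yap-activated with normal stomach already known, so their values in that comparison are given as a description. The members were part of the fit across all genes, and their calls in it are counted without being used as evidence. The libraries are 3 of gastric corpus epithelium from wild-type mice (Normal) and 3 of Yap-activated gastric cancer from mice with the genotype CluCreERT2;R26rtTA;HA-Yap+. That genotype combines a tamoxifen-dependent Cre recombinase at Clu, the doxycycline-dependent activator rtTA at Rosa26 and an HA-tagged Yap transgene. Both groups received tamoxifen (2 mg on each of 5 days) and doxycycline food for 14 days before collection, so those agents are shared and the alleles are not. Effects of CreERT2 and rtTA themselves and those of the Yap transgene cannot be told apart, and the labels give neither the age of the mice nor whether each library came from a separate mouse.

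Library totals ran from 25580734 to 48440033 counts. Values are CPM, counts scaled by library total and by trimmed-mean-of-M-values (TMM) factors, in which 1 count was worth between 0.0186 and 0.0339 CPM. Yap1 had 100, 104 and 106 CPM in Normal and 3084, 1468 and 1651 CPM in Yap-activated libraries, so the targeted gene followed the labels. The 6 general epithelial markers summed to between 4914 and 6267 CPM in Normal and between 10919 and 13005 CPM in Yap-activated libraries, so epithelial transcripts were abundant in all 6. The 8 parietal cell markers in the table went from between 23250 and 31037 CPM to between 399 and 521 CPM, and the 7 chief cell markers from between 90081 and 140610 CPM to between 160 and 195 CPM. In RNA from bulk tissue fewer cells of a type and less RNA per cell cannot be told apart.

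Proteins with WAP domains are best known as inhibitors of serine proteases at mucosal surfaces. Slpi blocks elastase and cathepsin G released by neutrophils, and it is made by epithelia as well as by leukocytes. Wfdc2, also known as HE4, is a secreted product of many epithelia and a serum marker of ovarian cancer, and it has been described in metaplastic gastric glands. Wfdc17 was described in activated macrophages and microglia under the name Amwap, and Wfdc1 as ps20, a protein secreted by prostate stroma. For several other members, Wfdc3, Wfdc15b, Wfdc18 and Wfdc21 among them, the target protease is less well defined.

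In the GRCm38 build 7 of the 8 genes lie in 2 clusters. On chromosome 2, between 164214454 and 164745931, lie Wfdc15b, Slpi, Wfdc2 and Wfdc3, within a span of 531.5 kb. On chromosome 11, between 83703991 and 83752642, lie Wfdc17, Wfdc18 and Wfdc21, within 48.7 kb and all on the plus strand. Wfdc1 lies apart on chromosome 8, from 119666365 to 119688222. All 8 are protein-coding genes in GENCODE release 21. None of their annotated 50-base transcript sequences, the length of the reads, occurs in a transcript of another gene, so reads of 1 member could be told from those of the others. No exon of a member overlaps another gene of the count table.

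Promoter sequences are shown for Wfdc2 and Wfdc18, the members with the largest differences between the groups, and for Wfdc17, the neighbour of Wfdc18 that behaved differently. They are the 250 bases before the RefSeq transcript start of Wfdc2 (chr2:164562465-164562714), Wfdc18 (chr11:83708754-83709003) and Wfdc17 (chr11:83703806-83704055), all on the plus strand of GRCm38.p6, written 5′ to 3′. Capitals mark CG dinucleotides and the core promoter motif TATAAA.
Wfdc2: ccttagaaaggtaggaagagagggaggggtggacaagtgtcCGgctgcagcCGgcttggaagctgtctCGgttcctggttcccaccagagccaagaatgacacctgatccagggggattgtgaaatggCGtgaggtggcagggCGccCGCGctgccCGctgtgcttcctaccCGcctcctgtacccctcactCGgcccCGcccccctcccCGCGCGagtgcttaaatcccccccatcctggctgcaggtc
Wfdc18: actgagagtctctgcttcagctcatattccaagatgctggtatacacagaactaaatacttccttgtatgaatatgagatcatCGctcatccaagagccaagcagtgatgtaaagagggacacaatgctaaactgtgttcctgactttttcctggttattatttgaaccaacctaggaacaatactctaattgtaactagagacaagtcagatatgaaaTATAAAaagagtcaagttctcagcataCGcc
Wfdc17: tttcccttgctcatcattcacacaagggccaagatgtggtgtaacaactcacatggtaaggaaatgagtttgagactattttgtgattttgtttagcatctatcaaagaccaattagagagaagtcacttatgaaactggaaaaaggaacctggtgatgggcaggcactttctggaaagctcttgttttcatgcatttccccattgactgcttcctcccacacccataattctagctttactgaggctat
The Wfdc2 window holds 14 CG dinucleotides and is 64.8% G and C, against medians of 6 and 52.4% over 32817 promoter windows. The Wfdc18 window holds 2 CG dinucleotides at 38.4% G and C, and TATAAA from 31 to 26 bases before the start. The Wfdc17 window holds 0 CG dinucleotides at 41.2% G and C. TATAAA occurs, on either strand, in 12.4% of all windows.

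RefSeq windows were matched for 6 of the 8 members, all but Wfdc1 and Wfdc21. They were searched on both strands for GGAATG, a core of the sites of Yap's TEAD partners, for the AP-1 motif TGANTCA and for the NF-kappaB motif. None of the 6 members' windows held any of the 3. The share of all windows that hold them is 12.6%, 6.75% and 1.41%. These letters were searched in this window only and without mismatches, and distal elements were not examined.

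Wfdc2 was the most abundant member in every library. It stood at 15.8, 21.3 and 9.73 CPM in Normal and at 668, 518 and 304 CPM in Yap-activated libraries. The lowest Yap-activated library was above the highest Normal one, and the group means were 15.6 ± 5.80 and 497 ± 183 CPM (SD, n = 3). The fitted log2 fold change was 4.99 (SE 0.42). Beside this, 8 of the 11 listed markers of neck cells and SPEM, the spasmolytic polypeptide-expressing metaplasia, rose, 1 fell and 2 did not pass by the edgeR test, which called 29.8% of all genes higher. That list summed to between 3975 and 5984 CPM in Normal and between 7939 and 9169 CPM in Yap-activated libraries, with no marker at 0. Clu alone supplied 1646, 2302 and 2107 CPM of the sums in Normal and 3631, 5642 and 5850 CPM in Yap-activated libraries. Much of each sum is therefore that of 1 gene, and the part of the list in the Wfdc2 result was not tested. By the edgeR test Cftr, a chloride channel, rose by 6.36 on the log2 scale (SE 0.21, adjusted p = 7.56e-07) and Clu by 1.32 (SE 0.24, adjusted p = 0.00225). However, Clu carries the CreERT2 allele in the Yap-activated mice. Muc6 and Tff2, also on the list, stood at 0.443 and 0.825 times their Normal means in Yap-activated replicate 1, the highest of that group for both.

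Wfdc18, an extracellular proteinase inhibitor gene next to Wfdc17, had the largest log2 fold change of the members. In Normal it was near the limit of detection, at 0.175, 0.261 and 0.126 CPM, which are 6, 11 and 4 counts. In Yap-activated libraries it stood at 46.4, 33.4 and 35.7 CPM, from 1371, 1399 and 1920 counts. The 3 Yap-activated libraries lay close together, with a highest value 1.39 times the lowest. The log2 fold change was 7.62 (SE 0.27).

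**Figure D1:**
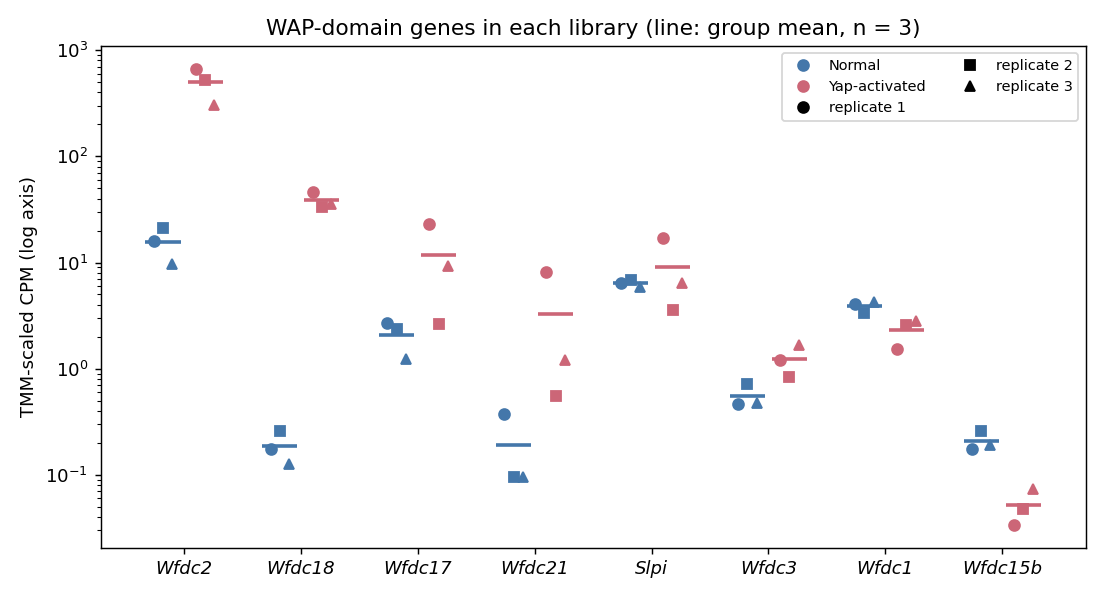
TMM-scaled CPM (log axis) of the 8 WAP-domain genes in each of the 6 libraries, with replicates 1 to 3 as circle, square and triangle and group means as lines (n = 3). Wfdc2 and Wfdc18 are clearly separated between the groups, Wfdc17, Wfdc21 and Slpi are spread widely within the Yap-activated group, and Wfdc1 and Wfdc15b are lower there.

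Wfdc17, Wfdc21 and Slpi had a wide spread among Yap-activated libraries. Wfdc17 had 2.68, 2.38 and 1.23 CPM in Normal and 23.1, 2.65 and 9.22 CPM in Yap-activated libraries. Yap-activated replicate 2 therefore fell within the Normal range, and the 2 groups overlapped. The log2 fold change was 2.46 (SE 0.75), and 1.51 without Yap-activated replicate 1.

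Wfdc21, the third gene of the chromosome 11 cluster, had 0.379, 0.0950 and 0.0948 CPM in Normal, from 13, 4 and 3 counts, and 8.13, 0.548 and 1.21 CPM in Yap-activated libraries. The groups did not overlap, but the highest Yap-activated value was 14.8 times the lowest. Its log2 fold change was 4.09 (SE 1.20), and 2.23 without Yap-activated replicate 1.

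Slpi, the member with the best known antiprotease activity, hardly differed in its middle values. It had 6.46, 6.86 and 5.85 CPM in Normal, a narrow range, and 17.0, 3.58 and 6.36 CPM in Yap-activated libraries. Of the latter 1 lay above all Normal libraries, 1 below all of them and 1 among them. The log2 fold change of 0.48 (SE 0.52) became -0.35 without Yap-activated replicate 1.

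The spread of Wfdc17, Wfdc21 and Slpi within the Yap-activated group is given as a description. The highest of the 3 libraries exceeded the lowest by 8.72 times for Wfdc17, 14.8 times for Wfdc21 and 4.76 times for Slpi, and in all 3 the order was replicate 1, then 3, then 2. Over 12791 tested genes with a mean of at least 1 CPM in that group the median ratio was 1.30, and 3.86% of genes reached 4. That order alone occurred in 15.3% of them, and its combination with a ratio of at least 4 in 1.04%. The order was read from these 3 members, so both shares are a description and no test. Wfdc18 had the same order with a ratio of 1.39, and Wfdc2 was highest in replicate 1 and lowest in replicate 3 with a ratio of 2.20.

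Markers of neutrophils also varied widely among these libraries. Of 7 tested neutrophil markers 5 had the order 1, 3, 2, and all 7 were lowest in replicate 2, with ratios of highest to lowest from 5.66 to 64.8. The exceptions to that order were Csf3r and Cxcr2, both highest in replicate 3. In Yap-activated replicates 1, 2 and 3 Csf3r had 29.4, 7.92 and 44.8 CPM and Cxcr2 13.7, 1.93 and 17.2 CPM. The 11 neck and SPEM markers had the order 1, 3, 2 in 6 cases but with ratios of at most 2.28. The 6 general epithelial markers had it in 0 cases. Ltf, the lactoferrin gene of neutrophil granules, had 352, 11.2 and 138 CPM in Yap-activated replicates 1, 2 and 3, and S100a8, chosen after its values were seen, had 218, 4.01 and 55.7 CPM. The 12 markers of the list summed to between 6.23 and 27.4 CPM in Normal and to 970, 35.2 and 355 CPM in Yap-activated replicates 1, 2 and 3. Ltf, S100a8 and S100a9, the last at 274, 7.20 and 81.6 CPM, made up most of the latter sums. Ltf alone supplied 21.1 CPM of the sum in Normal replicate 2. Elane and Mpo, also on the list, were at or near 0, Mpo with at most 0.0678 CPM in any library. Macrophage and monocyte markers, 12 genes, summed to between 180 and 188 CPM in Normal and to 728, 388 and 939 CPM in Yap-activated replicates 1, 2 and 3. Cd14 alone supplied 400, 209 and 226 CPM of the latter sums, against 10.8, 16.8 and 9.73 CPM in Normal. Of the 12 markers 2 had the order 1, 3, 2, and 9 were lowest in replicate 2. Their ratios of highest to lowest ran from 1.91 to 6.67, with a median of 4.88. Whether these cells carried the reads of Wfdc17, Wfdc21 and Slpi was not tested. By the edgeR test 6 of the 7 neutrophil markers rose, among them the receptor genes Csf3r by 3.92 (SE 0.64, adjusted p = 0.00183) and Cxcr2 by 5.27 (SE 0.88, adjusted p = 0.00204), while Ltf, at 4.46, did not pass (adjusted p = 0.0570). With limma voom 2 of the 7 passed. Of the 12 macrophage and monocyte markers 5 rose and 7 did not pass, and 2 rose without any 1 of the Normal libraries or without Yap-activated replicate 3. Without the latter library 2 of the 12 were called lower, and the median log2 fold change of the 12 was 0.07 against 1.34 with all libraries.

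**Figure D2:**
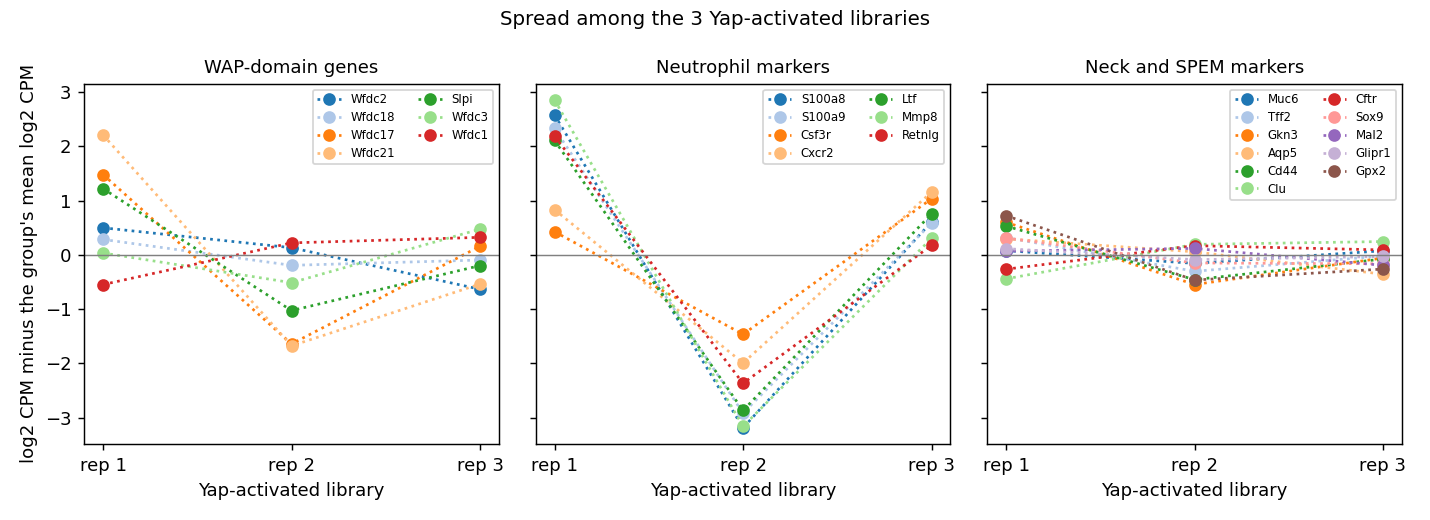
Log2 CPM of each tested gene in the 3 Yap-activated libraries, minus its mean over them, for 7 WAP-domain genes, 7 neutrophil markers and 11 neck and SPEM markers; dotted lines only join the values of 1 gene. Wfdc17, Wfdc21 and Slpi are lowest in replicate 2 and highest in replicate 1, as 5 of 7 neutrophil markers are, whereas neck and SPEM markers vary by at most 2.28 times.

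The remaining members were expressed at low levels. Wfdc3 had 0.466, 0.713 and 0.474 CPM in Normal and 1.22, 0.835 and 1.65 CPM in Yap-activated libraries, without overlap, at a log2 fold change of 1.16 (SE 0.38). Wfdc1 had 4.05, 3.37 and 4.24 CPM in Normal and 1.52, 2.60 and 2.79 CPM in Yap-activated libraries, also without overlap but in the other direction, at -0.74 (SE 0.29). Wfdc15b had 6, 11 and 6 counts in Normal and 1, 2 and 4 in Yap-activated libraries and was left out of the test by the filter on low counts. Beside Wfdc1, known from stroma, the 9 fibroblast markers summed to between 852 and 1274 CPM in Normal and to between 404 and 670 CPM in Yap-activated libraries, with no marker at 0. Of these 9, 3 fell, among them the collagen genes Col1a2 (287 to 96.0 CPM) and Col3a1 (347 to 108 CPM), 1 rose, Thy1 by 2.15 (SE 0.33, adjusted p = 8.30e-04), and 5 did not pass. These 3 were named after their values were seen. The 7 smooth muscle markers summed to between 206 and 325 CPM and to between 106 and 247 CPM, where 3 fell and 4 did not pass, but without Normal replicate 3 or with library totals alone 1 was lower and 1 higher. The 7 endothelial markers all fell, with sums between 169 and 184 CPM in Normal and between 33.5 and 57.7 CPM in Yap-activated libraries. The part of any of these cell types in the Wfdc1 values was not tested.

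Of the 8 members 7 passed the filter. The edgeR test called 5 of these higher, where it called 29.8% of all 14600 genes higher, 29.7% lower and 59.5% in either direction. It called 0 lower, against 1 member, Wfdc1, at an unadjusted p under 0.05 and also 1 with DESeq2 and with voom. With no filter on low counts all 8 were in the fit and 1 was called lower, which was Wfdc15b. Since the members were chosen with this comparison known, nothing is read from that count. The groups did not overlap for 4 of the 7 in the higher direction (33.2% of all genes) and for 1 in the lower (34.4%). The median log2 fold change of the 7 was 2.46, against 0.01 over all genes tested. Without 1 library the number called higher ranged from 2, without Normal replicate 3, to 5, and was 3 without Yap-activated replicate 1 and without replicate 1 or 2 of Normal. The calls lost were of Wfdc3, Wfdc17 and Wfdc21.

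**Figure D3:**
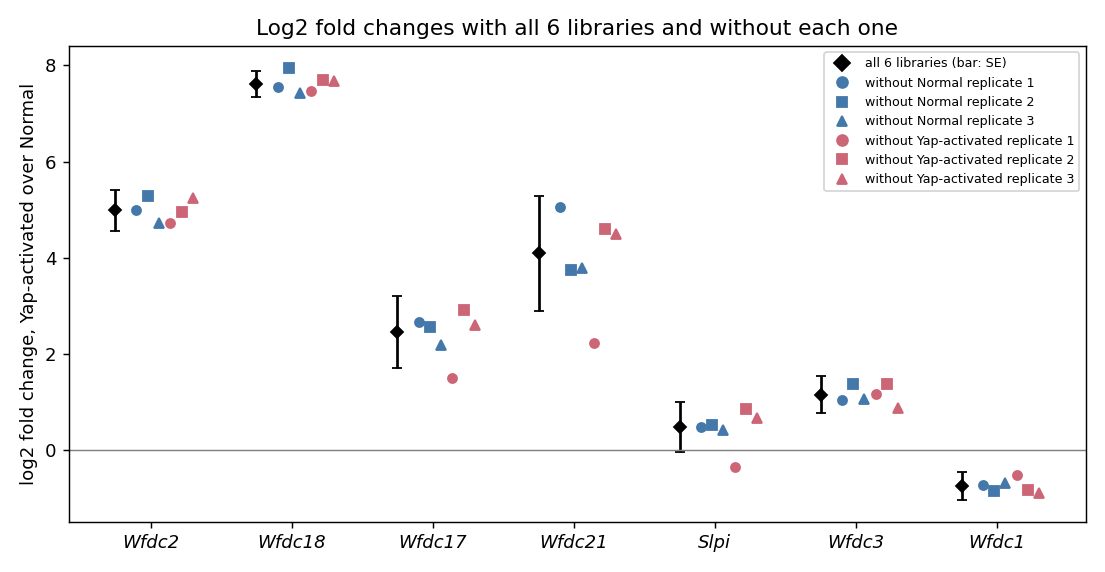
Log2 fold change of Yap-activated over Normal for the 7 tested members, with all 6 libraries (black diamond, bar = SE) and without each library in turn. The values of Wfdc2 and Wfdc18 move little, Wfdc21 goes from 4.09 to 2.23 and Slpi from 0.48 to -0.35 without Yap-activated replicate 1.

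Levels can be set beside each other between genes only per length, here as CPM per kb of annotated exon. In Normal the order was Wfdc2 at 13.7 ± 5.09, Slpi at 5.42 ± 0.434, Wfdc17 at 3.93 ± 1.43 and Wfdc1 at 2.52 ± 0.295 CPM per kb (SD, n = 3), with the other members at 0.437 or less. Neighbours in this order whose library values overlapped were Slpi with Wfdc17, Wfdc17 with Wfdc1, Wfdc21 with Wfdc15b and Wfdc3 with Wfdc18. In Yap-activated libraries it was Wfdc2 at 436 ± 160, Wfdc18 at 31.6 ± 5.72, Wfdc17 at 21.9 ± 19.6, Slpi at 7.61 ± 6.01 and Wfdc21 at 7.59 ± 9.68 CPM per kb, then Wfdc1, Wfdc3 and Wfdc15b. There Wfdc2 stood clear of all others, while the library values of Wfdc18, Wfdc17, Slpi and Wfdc21 each overlapped those of the next gene in the order, and Wfdc1, Wfdc3 and Wfdc15b did not overlap one another in turn. Wfdc18 moved from the last of the 8 places to the second.

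Summed over the 8 genes the level was 28.5, 32.4 and 19.4 CPM per kb in Normal and 702, 493 and 324 CPM per kb in Yap-activated libraries. Wfdc2 made up 50.2 ± 7.04% of that sum in Normal against 86.0 ± 5.37% under Yap activation (SD, n = 3). Slpi went from 20.9 ± 4.06% to 1.44 ± 0.744% of the sum, while Wfdc18 went from 0.566 ± 0.0846% to 6.67 ± 2.04%. Without Wfdc2 the sum was 13.1 ± 1.96 and 70.7 ± 40.4 CPM per kb.

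**Figure D4:**
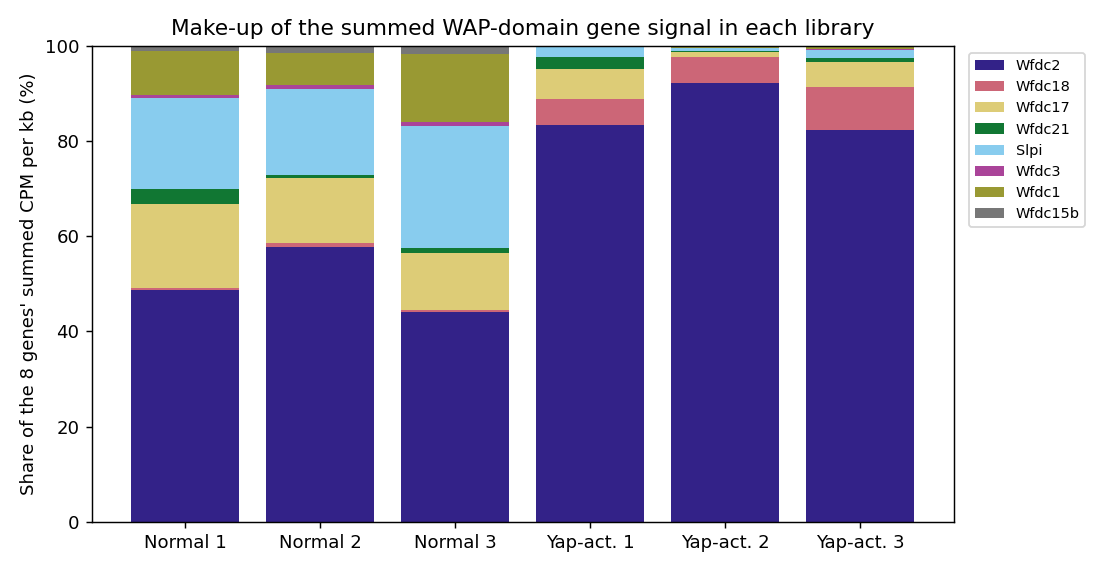
Share (%) of each WAP-domain gene in the 8 genes' summed CPM per kb, 1 bar per library. Wfdc2 takes 44.0% to 57.8% in Normal and 82.3% to 92.2% in Yap-activated libraries, and Slpi and Wfdc1 shrink to small shares.

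The genes whose pattern over the 6 libraries was most like that of Wfdc2, Wfdc17 or Wfdc18, the members that reach a mean of 10 CPM in a group, were sought among 10022 genes of at least that mean, by the root mean square difference of log2 CPM after each gene was centred on its own mean. Closest to Wfdc2 were Lgals3, the galectin-3 gene, S100a10 and Ttc9, at 0.35, 0.39 and 0.39 log2 units. Lgals3 had 24.5, 35.1 and 29.0 CPM in Normal and 1376, 721 and 555 CPM in Yap-activated libraries. Closest to Wfdc18 were Tnip3 at 0.12, Anxa8 at 0.14 and Msln, the mesothelin gene, at 0.26. Tnip3, which encodes a protein that binds the NF-kappaB regulator A20, had 0.524, 0.665 and 0.348 CPM in Normal and 89.7, 77.0 and 81.6 CPM in Yap-activated libraries. Closest to Wfdc17 were Clec4e, a C-type lectin receptor of myeloid cells, at 0.37, Srgn, the serglycin gene of blood cell granules, at 0.37 and the chemokine gene Ccl24 at 0.39. Clec4e had 33.2, 2.86 and 7.77 CPM in Yap-activated replicates 1, 2 and 3. These likenesses describe 6 libraries and rest largely on the difference between the groups.

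Among 15 other WAP-domain genes measured, 3 passed the filter, and they did not move together. Wfdc8, which lies between Wfdc2 and Wfdc3 on chromosome 2 from 164596458 to 164613626, had 0 counts in each Normal library and 45, 170 and 78 counts in Yap-activated libraries. It rose at least 84.3-fold (adjusted p = 7.24e-04), against a floor of 3 counts over the Normal group. At 2.34 ± 1.48 CPM (SD, n = 3) it stayed low, and its order among Yap-activated libraries, highest in replicate 2, was unlike that of Wfdc17, Wfdc21 or Slpi. An exon of Wfdc8 overlaps Wfdc6b on the opposite strand, and Wfdc6b held at most 0.0339 CPM; the strand setting of the counting is not stated, so reads of that overlap could belong to either gene. Wfikkn2 fell by 1.87 on the log2 scale (SE 0.47, adjusted p = 0.0101), a call lost when all libraries were thinned to the smallest total (adjusted p = 0.0527), and Wfikkn1, at 0.61, did not pass (adjusted p = 0.111), but did with library totals alone (1.10, adjusted p = 0.00943). Both encode large proteins with several protease-inhibitor modules that bind growth factors of the myostatin group. Wap, Wfdc9, Wfdc11 and Wfdc15a had no count in any library.

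The genes around the clusters differed from one to the next. The edgeR test called 29.8% of all genes higher and 29.7% lower. Within 200 kb of the chromosome 11 cluster 7 of 9 tested protein-coding genes rose by that test and 2 did not pass. Those not passing were the chemokine genes Ccl9 (8.92 to 13.1 CPM, adjusted p = 0.300) and Ccl6 (15.1 to 31.2 CPM, adjusted p = 0.0668). Those that rose include the chemokine genes Ccl4 at 2.78 (SE 0.69, adjusted p = 0.00923) and Ccl3 at 2.24 (SE 0.65, adjusted p = 0.0179). Both were at low levels, Ccl4 going from 0.210 to 1.47 CPM and Ccl3 from 0.319 to 1.54 CPM. Ccl3 did not pass when Normal replicate 2 or Normal replicate 3 was left out (adjusted p = 0.0677 and 0.0676). Heatr6, 1054 bases from Wfdc21, also rose, at 0.45 (SE 0.11, adjusted p = 0.00814). Around the chromosome 2 members 7 of 23 tested genes rose, 4 fell and 12 did not pass. Mmp9, a matrix metalloproteinase, rose by 5.27 (SE 0.28, adjusted p = 4.90e-06), and Rbpjl, a transcription factor gene 14046 bases from Slpi, fell by 5.14 (SE 0.22, adjusted p = 2.23e-06). Dnttip1, which lies 52 bases from Wfdc3, rose by 0.67 (SE 0.11, adjusted p = 0.00112). Distances are between the ends of GENCODE gene spans. The RefSeq starts of Slpi and Wfdc3 lie inside those spans, so Rbpjl and Dnttip1 are farther from these starts. Of 8 tested genes around Wfdc1, 7 fell, among them the potassium channel gene Kcng4, and 1 rose, Atp2c2 by 2.17 (SE 0.28, adjusted p = 4.44e-04).

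Serine proteases of leukocytes and of epithelial membranes were unequally represented, and whether the members inhibit them was not tested. Transcripts of elastase (Elane) and cathepsin G (Ctsg) were barely counted, with 1 count of Elane over the 6 libraries. Ctsg had 4, 0 and 1 counts in Normal and 0, 1 and 0 in Yap-activated libraries. The proteins were not measured. Of 8 tested leukocyte serine proteases 3 rose, 3 fell and 2 did not pass. The mast cell tryptases Tpsb2 and Tpsab1 fell by 2.71 (SE 0.35, adjusted p = 3.83e-04) and 2.84 (SE 0.39, adjusted p = 5.18e-04), while Mcpt2, a protease of mucosal mast cells, rose by 1.58 (SE 0.24, adjusted p = 9.11e-04). Of 8 membrane serine proteases of epithelia 3 rose, 2 fell and 3 did not pass. Prss22, a tryptase-like protease, went from 0.413 to 182 CPM, a rise of 8.74 on the log2 scale (SE 0.46, adjusted p = 9.55e-06), whereas Prss8, the prostasin gene, fell by 1.07 (SE 0.12, adjusted p = 1.91e-04) and Hpn, the hepsin gene, from 38.2 to 13.4 CPM (adjusted p = 0.00231). Tmprss2, with means of 447 CPM in Normal and 422 CPM in Yap-activated libraries, was at -0.08 and did not pass (adjusted p = 0.648), though with library totals alone it stood at 0.42 (adjusted p = 0.0399).

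Other families of small protease inhibitors held genes that rose and genes that fell. Of 6 tested Kunitz-domain genes 2 rose and 2 fell, while 2 did not pass. The number that rose was 1 when any library other than Yap-activated replicate 1 was left out, with DESeq2, voom, the replicate block or thinning, and with a filter of 1 CPM in 3 libraries. Aplp2 and App, whose proteins carry Kunitz modules in some isoforms, fell by 2.34 (SE 0.17, adjusted p = 1.88e-05) and 1.41 (SE 0.18, adjusted p = 3.11e-04). Spint1, an inhibitor of membrane serine proteases such as matriptase, rose by 0.56 (SE 0.12, adjusted p = 0.00575), and Spint2, at 0.24, did not pass (adjusted p = 0.167; 0.00277 with library totals alone). Of the Kazal-domain genes 2 were tested. Spink4 fell by 3.01 (SE 0.27, adjusted p = 6.08e-05) and Reck, at -0.10, did not pass (adjusted p = 0.779). Among 3 tested cystatins, inhibitors of cysteine proteases, Cst8 fell from 26.3 to 0.0367 CPM and Cst3 by 0.76 (SE 0.12, adjusted p = 0.00107; 0.128 with library totals alone), while Cstb rose by 0.93 (SE 0.15, adjusted p = 0.00123). Progranulin (Grn), a growth factor that Slpi shields from elastase, had 129 CPM in both groups and did not pass (log2 fold change 0.00, SE 0.26, adjusted p = 0.997). Its receptor gene Sort1 fell by 1.41 (SE 0.17, adjusted p = 2.32e-04), and Psap, the prosaposin gene, was at -0.20 and did not pass (adjusted p = 0.459).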

How the data were processed

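The authors deposited 1 table of raw counts, whole numbers of reads per gene symbol, for the 6 libraries; replicates were not pooled. Per the submitters' processing notes, STAR 2.4.2a and DESeq2 were used, with GRCm38 and mm10 named as builds. For the counting program, its strand setting and the annotation, nothing is stated in the sources used here. Per the labels' protocols, poly(A) libraries from a stranded kit were read as 50-base pairs.

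The main test ran in edgeR 4.0.16 under R 4.3.3. After filterByExpr (minimum count 10) and TMM scaling, the groups were compared by edgeR's quasi-likelihood test with robust dispersions over the 6 libraries. P-values were adjusted by Benjamini-Hochberg over 14600 genes with a threshold of 0.05, and they measure the spread between libraries, which may be technical. Each SE was taken from the log2 fold change and the F statistic (their ratio, with F under a square root). The procedure was also run on simulated data in which only a small part of the genes changed. Since far more genes were called here, that run does not bear on the choice of scaling.

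The members and lists were chosen with earlier results of these data known. Genes named are all members, other WAP-domain genes that passed the filter, in each further list the genes with the smallest p and the most abundant one, the genes most like a member, and neighbours within 200 kb; neighbours and marker examples printed are a selection made after their values were seen. Positions are from GENCODE mouse release 21 (21523 of 21526 symbols matched) and promoters from RefSeq. The alternatives were other scalings and filters, non-robust dispersions, DESeq2 1.42.0, limma 3.58.1 voom, a replicate block, thinning to the smallest total, and leaving out each library.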

Additional observations from a re-analysis of the deposited data

How the results depend on the processing

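Scaling by library totals alone gave 7521 genes called higher and 2299 lower, so that 76.6% of calls were higher against 50.0% with TMM, and the median log2 fold change of all genes moved from 0.01 to 0.50. Leaving out 1 library gave between 3530 and 4304 genes higher and between 3674 and 4273 lower. Of the members, Wfdc2 ranged from 4.73 to 5.47 and Wfdc18 from 7.19 to 8.10 over the 16 alternatives, values that say nothing of stability where members were chosen on this comparison. Wfdc17 (1.51 to 2.94) and Wfdc3 (0.88 to 1.65) each lost their call in 6 alternatives and Wfdc21 (2.23 to 5.05) in 3, of 16, 15 and 15; Wfdc3 and Wfdc21 have no value with a filter of 1 CPM in 3 libraries. Wfdc1 passed in 3 of 16.

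Directions reversed for Slpi, which ranged from -0.35 to 0.85 over the fits without 1 library, and for genes that did not pass. Tmprss2 (0.42), Reck (0.39) and Psap (0.30) reversed with library totals alone. Without 1 library Tmprss2 ranged from -0.174 to 0.0428, Reck from -0.307 to 0.0861, Cd4, a lymphoid marker, from -0.62 to 1.26 and Grn from -0.29 to 0.26. Grn was also at -0.0021 with no filter, -0.0888 with voom and -0.0703 with the replicate block. The cause was not tested.

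With the replicate block 4239 genes were higher and 4322 lower, and Wfdc17 and Wfdc3 (adjusted p = 0.0709) did not pass by edgeR. Same-numbered libraries deviated together with correlations of 0.04, 0.0027 and 0.069 over genes, not every library correlated best with its own number, and the labels do not pair them. At 3 to 13 counts a library in Normal, Wfdc18 and Wfdc21 have folds whose size rests on few reads.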
